A study of Homo sapiens with 12 samples.

Results

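The genes described here are the 10 genes at the centre of the ATF4-CHOP stress response: *ATF4*, *DDIT3* (which encodes CHOP), *ATF3*, *CEBPB*, *NUPR1*, *TRIB3*, *CHAC1*, *PPP1R15A*, *DDIT4* and *SESN2*. They were listed by name for their known place in this response, with earlier results of these data known. All 10 were found by symbol, with the same Ensembl identifiers, in both deposited count tables, which list 30984 and 78691 genes and share 30358.

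When unfolded proteins, a disturbed ER membrane, amino acid shortage or other stresses activate an eIF2α kinase, general translation slows while the ATF4 mRNA is translated more efficiently. ATF4 is a basic leucine zipper (bZIP) transcription factor that turns on genes of amino acid supply together with a second tier of regulators, among them CHOP, which pairs with other bZIP proteins and is linked to cell death under lasting stress. Several targets feed back on the response: GADD34 (encoded by *PPP1R15A*) brings a phosphatase to eIF2α, TRIB3 binds ATF4 and restrains it, and DDIT4 and SESN2 restrain the growth kinase complex mTORC1.

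To determine what the loss of PTDSS1 activity does to transcript levels, the study sequenced poly-A RNA from 2 lines given PTDSS1i for 48 h. PTDSS1 is an enzyme that makes the membrane lipid phosphatidylserine, and PTDSS1i is its small-molecule inhibitor DS55980254. The 4 groups of 3 biological replicates, 12 libraries in all, were KYSE30 with DMSO, KYSE30 with 100 nM PTDSS1i, U138MG with DMSO and U138MG with 100 nM PTDSS1i. KYSE30 is an esophageal squamous cell carcinoma line and U138MG is labelled a glioblastoma line. Both are labelled wild type, and DMSO is the vehicle. The labels give one growth medium, RPMI-1640 with Ham's F-12, for both lines, whereas the study's methods name DMEM for U138MG. KYSE30 libraries are labelled batch1 and U138MG libraries batch2, so line and batch cannot be told apart.

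Total counts per library lay between 18800932 and 26514658, and 3 counts corresponded to 0.113 to 0.160 CPM, the count scaled to library size. The defining glial markers were low or at 0 in the libraries labelled U138MG. Mesenchymal markers were mixed, and most squamous and epithelial markers were above 1 CPM. In DMSO these libraries held 1470 CPM of the keratin gene *KRT5*, 276 CPM of the squamous regulator *TP63* and 463 CPM of *CDH1* (E-cadherin). Other keratin genes stood at 4861 CPM (*KRT15*), 1842 CPM (*KRT8*) and 679 CPM (*KRT18*). The squamous keratin genes *KRT14* (0.198 CPM) and *KRT6A* (0.488 CPM) were low. *VIM* (vimentin) stood at 0.206 CPM, *GFAP* at 2.36 CPM, and *S100B* and *OLIG2* at 0. The same libraries held 713 CPM of *SPARC*, 406 of *CD44*, 75.8 of *FN1*, 54.5 of *COL1A1* and 38.9 of *SOX2*. In KYSE30 DMSO these 5 genes stood, in the same order, at 4.55, 534, 98.3, 10.7 and 99.4 CPM. In KYSE30 *KRT5* (0.0608 CPM) and *KRT14* (0.355 CPM) were low. Of 12 squamous and epithelial markers, 10 were above 1 CPM in DMSO in each line. Of 12 glial and mesenchymal markers, 7 were in KYSE30 and 8 in libraries labelled U138MG. Only 10 of the latter 12 were found by symbol in KYSE30, all but *S100B* and *OLIG2*. The summed level of the squamous and epithelial markers ranged from 9903 to 10822 CPM in DMSO and from 4761 to 4955 CPM in PTDSS1i in libraries labelled U138MG, and from 8042 to 8575 and from 10515 to 10773 CPM in KYSE30. Over the 12 glial and mesenchymal markers the summed level ranged from 1290 to 1317 CPM in DMSO and from 1143 to 1179 CPM in PTDSS1i in libraries labelled U138MG. Over the 10 found in KYSE30 it ranged from 748 to 776 CPM in DMSO and from 1112 to 1138 CPM in PTDSS1i. The share of mitochondrially encoded reads also moved with treatment, from between 7.31% and 7.67% to between 6.47% and 6.78% in KYSE30, and from between 1.11% and 1.15% to between 1.65% and 1.75% in libraries labelled U138MG. The part of these shifts in the results below was not tested. The second set is called libraries labelled U138MG throughout.

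The promoter windows of the members were read from RefSeq (GRCh38.p14), which held a window for 9 of the 10. Each window runs from 250 bases before to 50 bases after an annotated transcript start, and 15 windows were available because several genes have more than 1 start. They were searched on both strands for 4 motifs. The 4 members below held one, and the 250 bases before the start are shown with the motif in capitals.
CHAC1: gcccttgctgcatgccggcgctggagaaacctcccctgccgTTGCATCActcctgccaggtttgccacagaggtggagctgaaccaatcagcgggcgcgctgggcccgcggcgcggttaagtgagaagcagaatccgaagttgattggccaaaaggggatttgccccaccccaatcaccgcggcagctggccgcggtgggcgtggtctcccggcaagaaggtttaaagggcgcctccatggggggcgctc
ATF3: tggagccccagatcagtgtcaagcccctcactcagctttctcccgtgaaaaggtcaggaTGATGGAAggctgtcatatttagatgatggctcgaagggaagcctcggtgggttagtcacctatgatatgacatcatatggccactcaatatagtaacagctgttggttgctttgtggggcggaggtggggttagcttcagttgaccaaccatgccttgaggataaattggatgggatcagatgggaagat
DDIT3: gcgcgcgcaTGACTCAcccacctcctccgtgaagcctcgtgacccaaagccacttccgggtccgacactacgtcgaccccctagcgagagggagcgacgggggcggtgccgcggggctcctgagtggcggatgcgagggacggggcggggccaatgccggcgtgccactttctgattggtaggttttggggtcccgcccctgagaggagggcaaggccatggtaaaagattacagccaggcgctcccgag
PPP1R15A: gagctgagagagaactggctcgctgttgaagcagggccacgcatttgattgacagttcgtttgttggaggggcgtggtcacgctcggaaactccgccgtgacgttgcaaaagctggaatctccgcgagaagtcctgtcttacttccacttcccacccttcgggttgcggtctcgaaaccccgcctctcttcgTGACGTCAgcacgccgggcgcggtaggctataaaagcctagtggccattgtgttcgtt
These stretches lie at chr15:40953221-40953470 for *CHAC1*, chr1:212565157-212565406 for *ATF3* and chr19:48872171-48872420 for *PPP1R15A* on the forward strand, and at chr12:57520515-57520764 for *DDIT3* on the reverse strand. The core of the C/EBP-ATF response element, at which ATF4 paired with a C/EBP protein is known to bind, was searched as TGATGNAA. *ATF3* held it as TGATGGAA, first base at -191 from the start, and *CHAC1* held its reverse complement TTGCATCA at -209. The other *ATF3* window, chr1:212614768-212615067, held no match. This core was thus held by 2 of the 9 members with a window, and by 4.46% of the 27305 genes with a promoter window. The windows of *TRIB3* and *DDIT3* did not hold it, and a relation of the motif to the size of the rise was not tested. *PPP1R15A* held the cAMP response element TGACGTCA at -58, which 2.25% of genes hold. *DDIT3* held the AP-1 site TGACTCA at -241, which 6.05% of genes hold. No member held the ER stress response element, searched as CCAAT followed after 9 bases by CCACG and present in 0.0916% of genes. None of these matches overlapped another. A match describes letters in the window, and its absence says only that they are not in it.

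All 10 members were higher after PTDSS1i in both lines, at an adjusted p under 0.05. Tests were edgeR's quasi-likelihood tests, and p-values were adjusted by Benjamini-Hochberg over all genes tested (edgeR adjusted p). In KYSE30 this holds for the 9 members that passed the filter on low counts in both treatments and for *NUPR1*, which passed it through the PTDSS1i libraries alone. Of all 16389 genes tested in KYSE30, 30.1% were called higher and 32% lower. Of all 17666 tested in libraries labelled U138MG, 33.9% were called higher and 33.6% lower. With scaling by library size alone, 3932 genes were higher and 6460 lower in KYSE30 and 4533 and 7694 in libraries labelled U138MG, against 4927 and 5238 and 5989 and 5930 with TMM scaling. That scaling shifted the median log2 fold change of all genes by -0.11 and -0.15. In no member did a PTDSS1i library overlap a DMSO library of the same line, and this order held for 32.1% and 35.5% of all genes tested. A rise of more than 1 on the log2 scale was seen in 6 of the 9 members passing in both treatments in KYSE30 and in 8 of the 10 in libraries labelled U138MG, against 6.4% and 8.19% of all genes. The median log2 fold change was 1.28 over those 9 and 1.80 over the 10, beside -0.03 over all genes in each line. The members were chosen with earlier results of these data known, so their shares beside those of all genes are no independent test. Bulk RNA cannot tell more RNA per cell from more cells of a kind. Summed over the 10 genes, normalized CPM went from 633 ± 37.2 to 1514 ± 22.9 in KYSE30 (SD, n = 3) and from 1307 ± 95.2 to 2901 ± 54.9 in libraries labelled U138MG. With 3 libraries against 3, an exact two-sided permutation test on a single member could reach no p below 0.1. The values used are therefore those of the model over all genes.

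**Figure D1:**
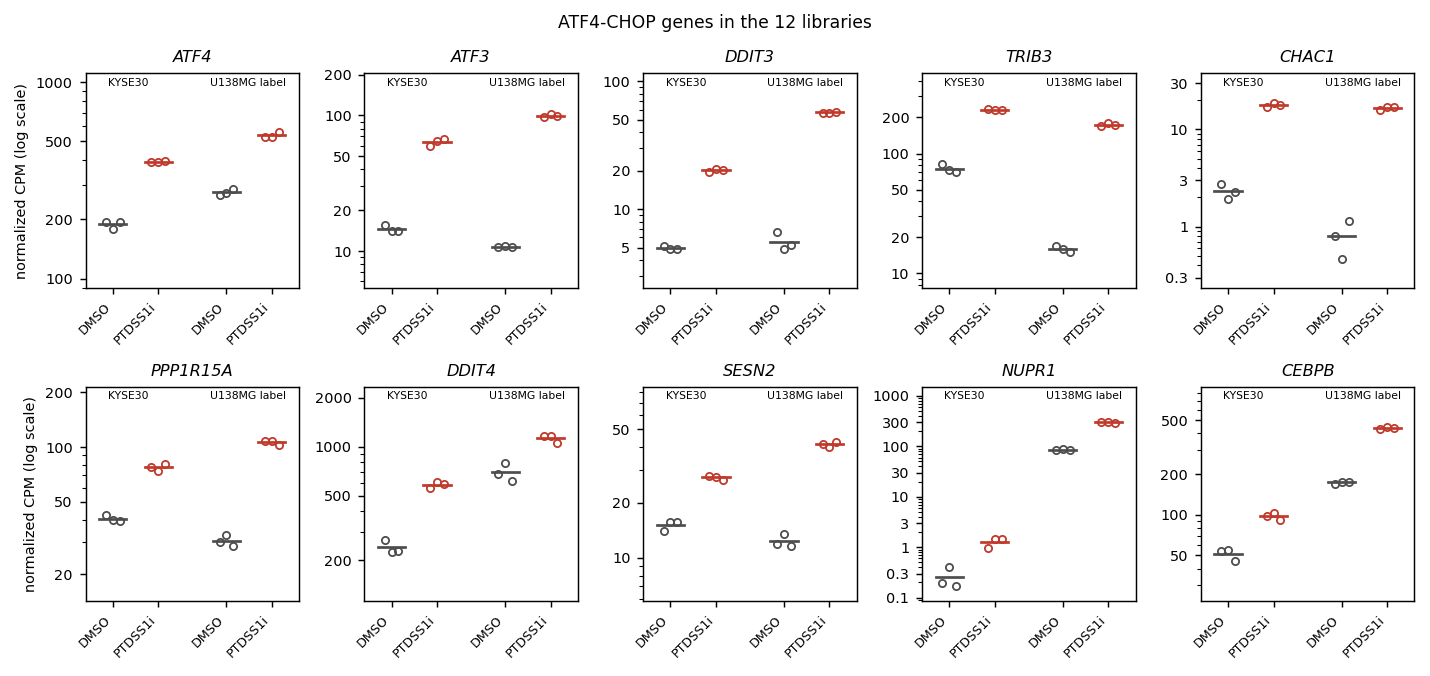
Normalized CPM of the 10 genes on a log scale in each of the 12 libraries, with circles for single libraries, a line for the mean of 3, grey for DMSO and red for PTDSS1i, KYSE30 at the left and libraries labelled U138MG at the right of each panel. In every panel the 3 red circles lie above the 3 grey circles of the same line, and *NUPR1* lies at or under 1.48 in KYSE30 and at or above 82.6 in libraries labelled U138MG.

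*ATF4*, the transcription factor at the head of the response (ENSG00000128272, chr22:39519695-39522685 on the forward strand, GRCh38, 3 exon blocks), stood at 193, 179 and 195 normalized CPM in KYSE30 DMSO replicates 1 to 3 and at 394, 391 and 395 in the PTDSS1i replicates. Libraries labelled U138MG held 267, 272 and 286 in DMSO and 527, 528 and 555 in PTDSS1i. Treated libraries lay above vehicle libraries in each line, and the libraries labelled U138MG lay above those of KYSE30 under each treatment. The mean went from 189 ± 8.49 to 393 ± 2.09 in KYSE30 (2.08-fold, log2 fold change 1.06, standard error 0.051, edgeR adjusted p = 1.03e-13) and from 275 ± 9.75 to 537 ± 16.2 in libraries labelled U138MG (1.95-fold, log2 fold change 0.96, standard error 0.035, edgeR adjusted p = 1.16e-19). Among all genes tested, ranked by their rise, *ATF4* was number 957 in KYSE30 and number 1547 in libraries labelled U138MG. RNA-seq measures the transcript and not the ATF4 protein, whose amount is known to be set largely at translation.

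*DDIT3* (ENSG00000175197, chr12:57516588-57521737 on the reverse strand) encodes CHOP, a bZIP protein that dimerizes with C/EBP family members. It was scarce in DMSO, at 5.13, 4.83 and 4.84 normalized CPM in KYSE30 and 6.58, 4.90 and 5.23 in libraries labelled U138MG, and reached 19.6, 20.6 and 20.2 and 56.7, 56.7 and 57.9 after PTDSS1i. The DMSO libraries of the lines overlapped, and the treated libraries labelled U138MG ended higher than the treated KYSE30 libraries. *DDIT3* rose from 4.93 ± 0.166 to 20.1 ± 0.492 in KYSE30 (4.08-fold, log2 fold change 2.03, standard error 0.096, edgeR adjusted p = 7.67e-14). The rise in libraries labelled U138MG was from 5.57 ± 0.889 to 57.1 ± 0.688 (10.3-fold, log2 fold change 3.37, standard error 0.081, edgeR adjusted p = 6.15e-24). In the GENCODE 29 annotation 355 bases of *DDIT3* exon, 27.2% of the total, lie on the opposite strand to exons of *MARS1*, a methionyl-tRNA synthetase gene, and 58 bases on the opposite strand to *MBD6*. The TruSeq v2 kit does not mark strand, so reads from those bases cannot be assigned to one gene. *MARS1* had 2636 to 3445 counts in KYSE30 DMSO, 3605 to 4484 in KYSE30 PTDSS1i, 2036 to 2419 in DMSO libraries labelled U138MG and 6826 to 7657 in PTDSS1i.

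*ATF3* (ENSG00000162772, chr1:212565334-212620777 on the forward strand), a stress-induced bZIP factor that can repress or activate its targets, read 15.5, 13.998 and 14.1 normalized CPM in KYSE30 DMSO and 59.9, 64.3 and 66.8 in PTDSS1i. Readings in libraries labelled U138MG were 10.7, 10.9 and 10.8 and 97.3, 102 and 98.7. The DMSO libraries labelled U138MG lay below those of KYSE30 and the treated ones above. The rise was 4.39-fold in KYSE30 (from 14.5 ± 0.824 to 63.7 ± 3.49, log2 fold change 2.13, standard error 0.07, edgeR adjusted p = 2.04e-16) and 9.19-fold in libraries labelled U138MG (from 10.8 ± 0.104 to 99.4 ± 2.57, log2 fold change 3.20, standard error 0.056, edgeR adjusted p = 5.45e-27).

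*CEBPB* (ENSG00000172216, chr20:50190734-50192689 on the forward strand) has 1 exon and encodes C/EBPβ, a dimer partner of both ATF4 and CHOP. Its levels were 53.6, 54.6 and 45.9 normalized CPM in KYSE30 DMSO, 97.3, 103 and 91.8 in KYSE30 PTDSS1i, 169.6, 176 and 175 in DMSO libraries labelled U138MG and 429, 445 and 442 in PTDSS1i libraries labelled U138MG. Even the treated KYSE30 libraries stayed under the untreated libraries labelled U138MG. It rose from 51.4 ± 4.79 to 97.2 ± 5.38 in KYSE30 (1.89-fold, log2 fold change 0.92, standard error 0.066, edgeR adjusted p = 1.1e-10). Its rise in libraries labelled U138MG was from 174 ± 3.55 to 439 ± 8.30 (2.52-fold, log2 fold change 1.34, standard error 0.034, edgeR adjusted p = 2.16e-23). The antisense gene *CEBPB-AS1* shares 231 exon bases with it, 11.8% of the *CEBPB* exon, and had 15 to 24 counts in KYSE30 and 1 to 7 in libraries labelled U138MG.

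*NUPR1* (ENSG00000176046, chr16:28532708-28539174 on the reverse strand), a small stress-induced chromatin protein, separated the lines more than any other member. KYSE30 libraries held 4, 8 and 4 counts in DMSO and 21, 28 and 36 in PTDSS1i, at most 1.48 normalized CPM. Libraries labelled U138MG held 82.6, 89.04 and 84.4 normalized CPM in DMSO and 302, 306 and 292 in PTDSS1i. By library total, the DMSO level was 337-fold higher in libraries labelled U138MG than in KYSE30. *NUPR1* rose from 85.4 ± 3.30 to 300.2 ± 7.51 in libraries labelled U138MG (3.51-fold, log2 fold change 1.81, standard error 0.038, edgeR adjusted p = 2.48e-25). In KYSE30 the change was from 0.256 ± 0.128 to 1.30 ± 0.277 (log2 fold change 2.35, standard error 0.37, edgeR adjusted p = 9.71e-06), with a 95% interval from 1.58 to 3.11, the widest of the members in that line.

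*TRIB3* (ENSG00000101255, chr20:362835-397559 on the forward strand), the pseudokinase that binds ATF4 and CHOP, started from a higher level in KYSE30. KYSE30 DMSO libraries held 81.4, 73.4 and 70.1 normalized CPM and DMSO libraries labelled U138MG 16.8, 15.9 and 15.1, with no overlap. After PTDSS1i they held 234, 229 and 231 and 169, 179 and 173, so the treated levels were nearer to each other than the vehicle levels, and KYSE30 remained the higher line. *TRIB3* rose 3.09-fold in KYSE30 (from 74.99 ± 5.81 to 231 ± 2.498, log2 fold change 1.63, standard error 0.057, edgeR adjusted p = 4.68e-16) and 10.9-fold in libraries labelled U138MG (from 15.9 ± 0.847 to 174 ± 4.81, log2 fold change 3.45, standard error 0.05, edgeR adjusted p = 4.3e-29).

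*CHAC1* (ENSG00000128965, chr15:40952962-40956519 on the forward strand), which encodes an enzyme that degrades glutathione, had the largest estimated fold of the 10 genes in each line. It rose from 56, 38 and 54 counts in KYSE30 DMSO to 369, 372 and 435 in PTDSS1i, and from 16, 11 and 26 to 363, 366 and 430 in libraries labelled U138MG. The vehicle counts are low, so the size of the fold rests on few reads while the treated levels are well measured. In normalized CPM it went from 2.31 ± 0.410 to 18.02 ± 0.882 in KYSE30 (7.76-fold, log2 fold change 2.96, standard error 0.12, edgeR adjusted p = 1.03e-14). The levels in libraries labelled U138MG went from 0.806 ± 0.341 to 16.6 ± 0.645 (20.6-fold, log2 fold change 4.36, standard error 0.17, edgeR adjusted p = 8.18e-19). It was number 43 of all genes by rise in KYSE30 and number 68 in libraries labelled U138MG. In KYSE30 its 95% interval (2.70 to 3.21) overlapped that of *NUPR1*, and in libraries labelled U138MG it (4.01 to 4.72) lay above that of the next gene, *TRIB3* (3.35 to 3.55).

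*PPP1R15A* (ENSG00000087074, chr19:48872392-48876057 on the forward strand), encoding the GADD34 subunit that directs dephosphorylation of eIF2α, was at 42.2, 39.9 and 39.3 normalized CPM in KYSE30 DMSO and 77.8, 73.5 and 81.1 in PTDSS1i. Its levels in libraries labelled U138MG were 30.3, 32.8 and 28.5 and 107, 108 and 103. As with *ATF3*, the libraries labelled U138MG were the lower of the lines in DMSO and the higher after PTDSS1i. Its rise was 1.92-fold in KYSE30 (from 40.5 ± 1.52 to 77.5 ± 3.85, log2 fold change 0.94, standard error 0.059, edgeR adjusted p = 8.87e-12) and 3.47-fold in libraries labelled U138MG (from 30.5 ± 2.14 to 106 ± 2.52, log2 fold change 1.79, standard error 0.05, edgeR adjusted p = 2.18e-22).

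Both mTORC1 inhibitors rose in each line. *DDIT4* (ENSG00000168209, chr10:72273920-72276036 on the forward strand), also known as REDD1, stood at 268, 224 and 228 normalized CPM in KYSE30 DMSO and 559.96, 603 and 589 in PTDSS1i, and at 679.9, 797 and 613 and 1168, 1166 and 1058 in libraries labelled U138MG. The vehicle libraries labelled U138MG were above even the treated KYSE30 libraries, and their SD of 93.3 was the largest of any member in any group. *DDIT4* rose 2.43-fold in KYSE30 (from 240.2 ± 24.3 to 584 ± 21.9, log2 fold change 1.28, standard error 0.063, edgeR adjusted p = 3.58e-13). The libraries labelled U138MG showed a rise of 1.62-fold (from 697 ± 93.3 to 1131 ± 63.2, log2 fold change 0.70, standard error 0.12, edgeR adjusted p = 0.00583), the lowest fold of the 10. In GENCODE 29, 847 exon bases of *DDIT4*, 41.2% of the total, are shared with an antisense gene, *DDIT4-AS1*. The annotated identifier, ENSG00000269926, was found in neither line. An overlap of the counted entry with *DDIT4* was not checked. An entry of the same name with another identifier, ENSG00000289506, had 397 to 508 counts in libraries labelled U138MG, and that identifier, unnamed in the KYSE30 table, had 2 to 8, against 13639 to 26659 and 4458 to 14280 counts of *DDIT4*.

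*SESN2* (ENSG00000130766, chr1:28259527-28282491 on the forward strand), a leucine-binding protein that holds mTORC1 in check when leucine is short, was at 13.96, 15.7 and 15.6 normalized CPM in KYSE30 DMSO and 27.9, 27.6 and 26.6 in PTDSS1i. The levels in libraries labelled U138MG were 11.96, 13.5 and 11.6 and 41.9, 40.01 and 42.8. The DMSO libraries of the lines overlapped by library total, and the treated ones did not. It rose 1.81-fold in KYSE30 (from 15.1 ± 0.988 to 27.4 ± 0.682, log2 fold change 0.86, standard error 0.076, edgeR adjusted p = 2.59e-09), the lowest fold of the members there, and 3.35-fold in libraries labelled U138MG (from 12.4 ± 1.02 to 41.6 ± 1.42, log2 fold change 1.75, standard error 0.073, edgeR adjusted p = 2.49e-18).

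**Figure D2:**
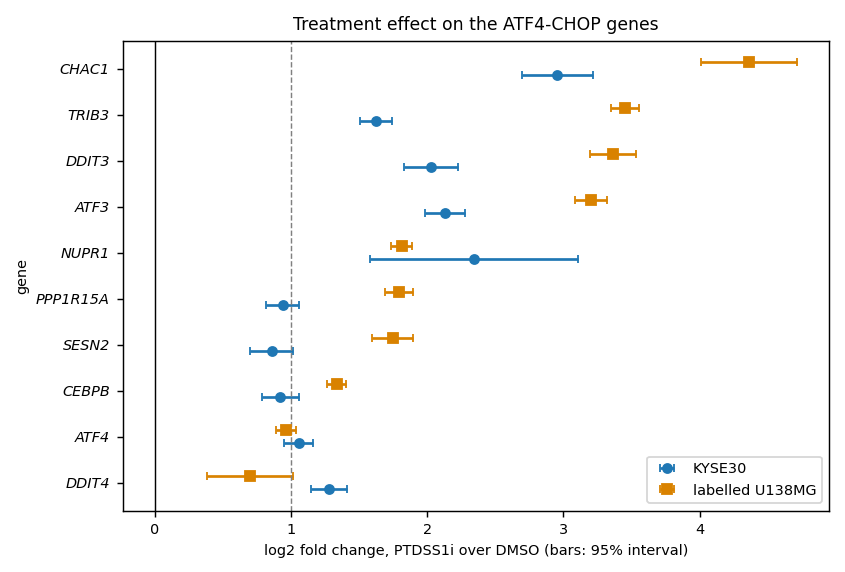
Log2 fold change of PTDSS1i over DMSO for the 10 genes with 95% intervals from the edgeR fit, blue circles for KYSE30 and orange squares for libraries labelled U138MG, with a solid line at 0 and a dashed line at 1. *CHAC1*, *TRIB3*, *DDIT3* and *ATF3* lie between 1.63 and 2.96 in KYSE30 and between 3.20 and 4.36 in libraries labelled U138MG, while *ATF4* lies near 1 in both.

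To determine whether the rise differed between the lines, the interaction of line and treatment was tested over 18405 shared genes. Of these, 49.9% differed, 25.5% with a larger and 24.4% with a smaller log2 fold change in libraries labelled U138MG by edgeR adjusted p. Among the members, 7 rose more in libraries labelled U138MG, 1 rose less and 2 were not called. *TRIB3* differed most, with a log2 fold change larger by 1.78 (edgeR adjusted p = 1.97e-18), a 3.44-fold ratio of the folds. With the edgeR adjusted p in parentheses, it was followed by *CHAC1* with 1.37 (3.45e-05), *DDIT3* with 1.30 (1.33e-09) and *ATF3* with 1.03 (6.65e-11). Smaller differences in the same direction were found for *SESN2* with 0.85 (4.6e-08), *PPP1R15A* with 0.82 (3.18e-10) and *CEBPB* with 0.37 (7.31e-05), by the same edgeR adjusted p. *DDIT4*, the mTORC1 inhibitor with the highest vehicle level, went the other way at -0.62 (edgeR adjusted p = 0.00344). For *ATF4* itself the difference was -0.13 and not called (95% interval -0.26 to -0.0025, edgeR adjusted p = 0.0848). Its call depended on the libraries and the fit: the edgeR adjusted p was 0.0402 with a replicate block, 0.0256 without KYSE30 DMSO replicate 1, 0.038 without KYSE30 DMSO replicate 3, 0.0483 without U138MG DMSO replicate 1 and 0.0348 without U138MG PTDSS1i replicate 3, at differences from -0.13 to -0.17. It was 0.00103 with upper-quartile scaling (difference -0.24), 0.0475 with library size alone (-0.13) and 0.0165 with at least 10 counts in every library (-0.17). *NUPR1* was not called at -0.58 (95% interval -1.24 to 0.09, edgeR adjusted p = 0.175), an interval that also holds differences below -1. Since line and batch cannot be told apart, these are differences between the 2 sets of libraries.

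Dividing each member's reads by the *ATF4* reads of the same library needs no scaling between libraries. In KYSE30, reads per 1000 *ATF4* reads went from 12.2 to 45.8 for *CHAC1*, from 76.9 to 162 for *ATF3*, from 26.1 to 51.2 for *DDIT3* and from 397 to 588 for *TRIB3*, with no overlap between treatments. *NUPR1* went from 1.38 to 3.29 and *DDIT4* from 1271 to 1484, also without overlap. The ratio of *SESN2* was lower in every treated library (from 80.1 to 69.7), and those of *PPP1R15A* (from 214 to 197) and *CEBPB* (from 273 to 247) overlapped. In KYSE30, 6 members were thus higher relative to *ATF4* in every treated library, and the other 3 were not. The 6 include *NUPR1*, which had only 4 to 8 counts in the DMSO libraries. Every treated library labelled U138MG was higher than every vehicle library in 8 of the 9 ratios. They went from 2.92 to 30.98 for *CHAC1*, from 58.1 to 324 for *TRIB3*, from 20.3 to 106 for *DDIT3* and from 39.3 to 185 for *ATF3*. Ratios of the other 4 moved less, from 111 to 198 for *PPP1R15A*, from 45.1 to 77.4 for *SESN2*, from 311 to 559.8 for *NUPR1* and from 632 to 818 for *CEBPB*. *DDIT4*, at 2542 in DMSO and 2110.4 in PTDSS1i, overlapped. The treated ratios of *PPP1R15A* were close in the lines, 197 and 198, from vehicle ratios of 214 and 111. These are descriptions of reads within libraries, with no test. The share of all genes with such a shift relative to *ATF4* was not computed, so the counts of members cannot be set against it.

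**Figure D3:**
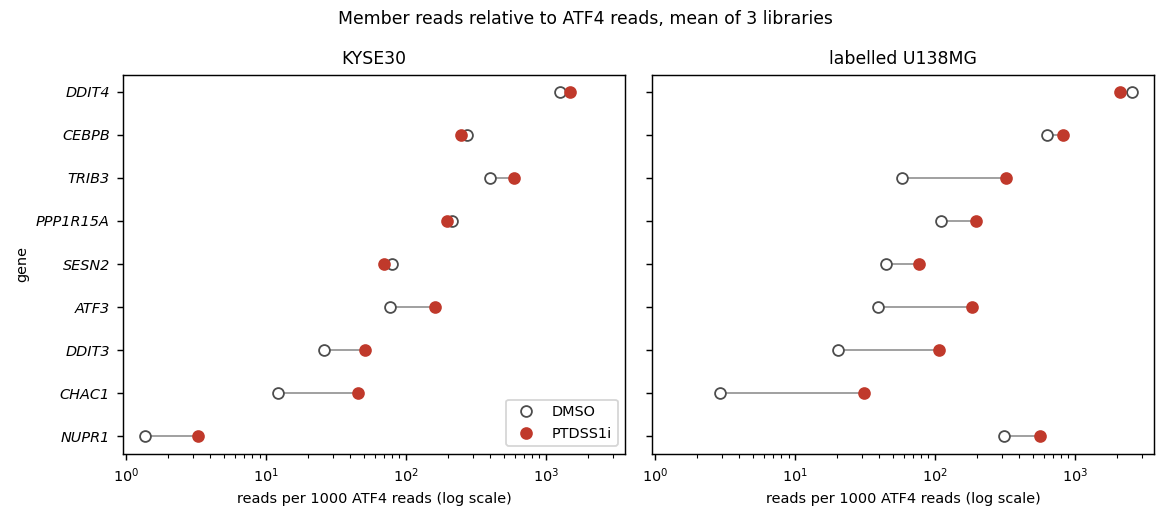
Reads of 9 members per 1000 *ATF4* reads of the same library on a log scale, open circles for DMSO and red circles for PTDSS1i, means of 3 libraries, KYSE30 at the left and libraries labelled U138MG at the right. *CHAC1* moves farthest in libraries labelled U138MG, from 2.92 to 30.98, and *DDIT4* stays above 1000 in all groups.

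Levels were also set per kilobase of annotated exon, with the exons of all transcripts of a gene merged. This length was 5674 bases for *NUPR1*, the longest of the members, and 1307 for *DDIT3*, the shortest. Where the expressed transcript is shorter than this, the level given is too low, so the orders and overlaps below depend on it. On this measure *DDIT4* and *ATF4* were the most abundant members in KYSE30 DMSO, at 117 ± 11.8 and 75.2 ± 3.38 normalized CPM per kb. They were followed by *CEBPB* at 26.3 ± 2.45 and *TRIB3* at 21.8 ± 1.69, whose libraries overlapped, then *PPP1R15A* at 13.1 ± 0.490, *SESN2* at 4.37 ± 0.286, *DDIT3* at 3.77 ± 0.127 and *ATF3* at 3.60 ± 0.204. *DDIT3* and *ATF3* overlapped, and *CHAC1* (1.12 ± 0.199) and *NUPR1* (0.0451 ± 0.0225) were lowest. After PTDSS1i, *TRIB3* at 67.4 ± 0.727 passed *CEBPB* at 49.7 ± 2.75, and *SESN2* at 7.94 ± 0.197 fell behind *ATF3*, *DDIT3* and *CHAC1*. In DMSO libraries labelled U138MG the order began with *DDIT4* at 339 ± 45.4, *ATF4* at 109 ± 3.88, *CEBPB* at 88.8 ± 1.81 and *NUPR1* at 15.05 ± 0.582. *TRIB3* came sixth there at 4.64 ± 0.247, overlapping *DDIT3* at 4.26 ± 0.680, which in turn overlapped *SESN2* at 3.58 ± 0.294. After PTDSS1i, *CEBPB* at 224 ± 4.24 and *ATF4* at 214 ± 6.43 overlapped, as did *NUPR1* at 52.9 ± 1.32 and *TRIB3* at 50.6 ± 1.40, while *DDIT4* stayed first at 549.5 ± 30.7.

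Between lines, compared by library total because the tables were made separately, the DMSO level of *TRIB3* was 4.64-fold higher in KYSE30 and that of *CHAC1* 2.82-fold higher. *ATF3* and *PPP1R15A* were 1.32-fold and 1.31-fold higher in KYSE30. *CEBPB*, *DDIT4* and *ATF4* were 3.43-fold, 2.95-fold and 1.48-fold higher in libraries labelled U138MG. The libraries of the lines did not overlap for any of these, whereas they did for *DDIT3* and *SESN2*. After PTDSS1i, *TRIB3* and *CHAC1* remained lower in every library labelled U138MG, at 0.741 and 0.909 of the KYSE30 level. The other 8 members were higher in every one. The share of all genes that separate the lines without overlap was not computed, so these orders cannot be called particular to the members.

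The genes whose pattern was most like that of *DDIT3* were taken over the 12 libraries, each line centred on its own mean, among 10270 genes with at least 5 CPM in each line. They were *DNAJB9* (Pearson r = 0.997), *PLEKHM1* (0.997), *CCL22* (0.997), *RNF145* (0.997) and *XBP1* (0.997). For *ATF4* they were *FDPS* (r = 0.998), *ACLY* (0.998), *GSK3B* (0.997), *S100A6* (0.997) and *SCD* (0.997). *DNAJB9* encodes an ER co-chaperone and *XBP1* a bZIP factor of the unfolded protein response, and *FDPS*, *ACLY* and *SCD* encode enzymes of sterol and fatty acid synthesis. In order of likeness to *DDIT3*, *ATF3* came 8th, *TRIB3* 37th, *PPP1R15A* 66th, *CHAC1* 109th, *CEBPB* 141st and *SESN2* 183rd. *ATF4* came 894th (r = 0.952) and *DDIT4* 2171st (r = 0.843). *NUPR1* was under 5 CPM in KYSE30 and was not ranked. The 12 points share 2 treatments and the scaling of their libraries.

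Around the members, 6 lists of genes were counted. Some genes stand on more than 1 list. The 24 genes of the eIF2 kinases and eIF2 machinery, which lie upstream of ATF4, were all tested. In KYSE30 9 were higher and 8 lower, with a median log2 fold change of -0.05, and in libraries labelled U138MG 12 were higher and 9 lower, with a median of 0.09, beside -0.03 over all genes. These are 37.5% higher and 33.3% lower in KYSE30, against 30.1% and 32% of all genes, and 50% and 37.5% in libraries labelled U138MG, against 33.9% and 33.6%. With library size alone, 13 were lower in KYSE30. In libraries labelled U138MG that scaling, like upper-quartile scaling, left *EIF2AK1*, *EIF2AK2*, *EIF2B3* and *EIF2B4* no longer called higher. It also made *EIF2B5*, *IMPACT* and *NCK1* lower there, so the balance of higher and lower in this list depends on scaling. *EIF2AK3*, which encodes the ER stress kinase PERK, rose most in both, from 31.7 ± 2.84 to 92.1 ± 3.44 normalized CPM in KYSE30 (log2 fold change 1.54, edgeR adjusted p = 1.08e-14) and from 25.1 ± 0.642 to 56.6 ± 3.31 in libraries labelled U138MG (1.17, edgeR adjusted p = 1.41e-16). In KYSE30, *EIF2AK2* (PKR, log2 fold change 0.66) and *PPP1CB*, a catalytic phosphatase subunit (0.60), also rose. *EIF2B3*, a subunit of the exchange factor eIF2B (-0.58), and *IMPACT* (-0.57) fell there. In libraries labelled U138MG, *PPP1R15B*, encoding the constitutive counterpart of GADD34 (1.07), and *EIF2S2* (eIF2β, 0.98) rose, and *DELE1*, a mitochondrial stress relay (-0.58), and *PPP1CC* (-0.47) fell.

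Of the 36 genes listed as bZIP partners, 33 were tested in each line. In KYSE30 20 were higher and 1, *CEBPA*, was lower, with a median of 0.45. With library size alone 4 were lower, and with a replicate block, or without KYSE30 DMSO replicate 2, 2 were lower. Of those in libraries labelled U138MG 22 were higher and 8 lower, with a median of 0.54. These include *BACH2* and *HLF*, which passed the filter through 1 treatment alone. The shares higher and lower were 60.6% and 3.03% in KYSE30, against 30.1% and 32% of all genes. They were 66.7% and 24.2% in libraries labelled U138MG, against 33.9% and 33.6%. *FOSB*, an AP-1 subunit, rose from 2.88 ± 0.168 to 15.9 ± 1.25 normalized CPM in KYSE30 (log2 fold change 2.46, edgeR adjusted p = 8.99e-14) and by 3.17 on the log2 scale in libraries labelled U138MG. *CEBPD* (1.97) and *MAFF* (1.76) followed in KYSE30. In libraries labelled U138MG the AP-1 subunit genes *FOSL1* (from 1.34 ± 0.418 to 80.9 ± 2.999, log2 fold change 5.92, edgeR adjusted p = 1.3e-26) and *JUN* (from 26.4 ± 2.09 to 358 ± 3.32, 3.76, edgeR adjusted p = 9.88e-31) rose most. *FOSL1* was not called in KYSE30 (0.45, edgeR adjusted p = 0.161), and its effect differed between the lines (difference 5.43, edgeR adjusted p = 2.26e-06). *ATF6B* was lower in libraries labelled U138MG (-0.73) and not called in KYSE30 (-0.038, edgeR adjusted p = 0.537), where library size alone made it lower (-0.14, edgeR adjusted p = 0.0145).

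Of 57 other ATF4 and CHOP targets, 54 were tested in KYSE30, where 37 were higher and 6 lower, with a median of 0.47. Libraries labelled U138MG had 56 tested, 50 higher and 2 lower, with a median of 0.98. The shares higher and lower were 68.5% and 11.1% in KYSE30, against 30.1% and 32% of all genes. They were 89.3% and 3.57% in libraries labelled U138MG, against 33.9% and 33.6%. *VLDLR* in KYSE30 and *SLC43A1* and *FGF21* in libraries labelled U138MG passed the filter through 1 treatment alone and are among those higher. *GDF15*, a secreted stress cytokine, rose most of the genes the naming rule took in both lines, from 65.3 ± 3.14 to 855 ± 92.05 normalized CPM in KYSE30 (log2 fold change 3.71, edgeR adjusted p = 7.58e-18) and from 6.68 ± 0.820 to 743 ± 21.3 in libraries labelled U138MG (6.79, edgeR adjusted p = 1.5e-34). *ADM2*, a peptide hormone gene, rose by 2.40 and 3.13 on the log2 scale and *VEGFA*, the angiogenic factor, by 2.15 and 2.78. The 6 targets called lower in KYSE30 were *PHGDH* and *PSPH* of serine synthesis, *ALDH18A1* of proline synthesis, the tRNA synthetase genes *IARS1* and *LARS1*, and the autophagy gene *ATG3*. *PSAT1*, also of serine synthesis, rose in both lines (0.69 and 1.51). *PSPH* fell from 147 ± 3.81 to 80.2 ± 2.16 (log2 fold change -0.87, edgeR adjusted p = 2.45e-12) and was not called in libraries labelled U138MG (0.12, edgeR adjusted p = 0.16), and *LARS1* fell in KYSE30 (-0.52). *PHGDH* (-0.20) and *ATG10* (-0.44), another autophagy gene, were those lower in libraries labelled U138MG, where library size alone made 4 lower. The difference between the lines was tested for 56 targets. Of these, 34 had a larger and 10 a smaller log2 fold change in libraries labelled U138MG. Over all genes tested, 25.5% had a larger and 24.4% a smaller one.

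All 19 genes listed as death effectors downstream of CHOP were tested. The list also holds anti-apoptotic genes and *ERN1*, the gene of an ER stress sensor, so its counts are not counts of death effectors alone. In KYSE30 11 were higher and 3 lower (median 0.39), and in libraries labelled U138MG 14 were higher and 4 lower (median 0.86). These are 57.9% higher and 15.8% lower in KYSE30, against 30.1% and 32% of all genes. The shares in libraries labelled U138MG are 73.7% and 21.1%, against 33.9% and 33.6%. With library size alone, 5 were lower in KYSE30. *PMAIP1*, which encodes the BH3-only protein NOXA, rose from 18.3 ± 0.283 to 59.03 ± 1.95 normalized CPM in KYSE30 (log2 fold change 1.69, edgeR adjusted p = 1.68e-15), where *ERO1A*, the ER oxidase gene (1.19), and *BBC3*, encoding PUMA (0.97), also rose. In libraries labelled U138MG *ERN1*, encoding the ER sensor IRE1α (from 12.1 ± 1.22 to 55.99 ± 2.90, log2 fold change 2.20, edgeR adjusted p = 5.72e-21), *BBC3* (2.10) and the death receptor gene *TNFRSF10A* (1.69) rose most. The anti-apoptotic gene *BCL2* fell in both lines. It went from 7.68 ± 0.984 to 4.52 ± 0.430 in KYSE30 (log2 fold change -0.76, edgeR adjusted p = 3.89e-05). In libraries labelled U138MG it went from 10.9 ± 1.14 to 5.35 ± 0.460 (-1.03, edgeR adjusted p = 2.06e-08). *BCL2L1* and *MCL1*, anti-apoptotic genes of the same list, rose in both, by 0.65 and 0.53 on the log2 scale in KYSE30 and by 0.97 and 0.43 in libraries labelled U138MG, and are counted among those higher. *BID* (-0.29) and *BAX* (-0.15) fell in KYSE30, and *TXNIP* (-0.55) and *GADD45B* (-0.46) in libraries labelled U138MG. *BCL2L11*, which encodes the pro-apoptotic protein BIM, also fell in libraries labelled U138MG (-0.36, edgeR adjusted p = 4.13e-06). In KYSE30 it was called higher (0.19, edgeR adjusted p = 0.037), a call lost with library size alone and with upper-quartile scaling.

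Of 32 mTORC1 regulators, the setting of *DDIT4* and *SESN2*, 30 were tested in KYSE30 (12 higher, 7 lower, median 0.10) and 31 in libraries labelled U138MG (14 higher, 10 lower, median 0.12). The shares higher and lower, 40% and 23.3% in KYSE30 and 45.2% and 32.3% in libraries labelled U138MG, compare with 30.1% and 32%, and 33.9% and 33.6%, of all genes. *DEPTOR*, encoding an inhibitor that binds the mTOR kinase, moved in opposite directions. It went from 8.13 ± 0.642 to 18.1 ± 0.0531 normalized CPM in KYSE30 (log2 fold change 1.16, edgeR adjusted p = 4.44e-10) and from 5.18 ± 0.283 to 1.70 ± 0.222 in libraries labelled U138MG (-1.60, edgeR adjusted p = 1.8e-08), and the effects differed (difference -2.80, edgeR adjusted p = 2.71e-14). In KYSE30 *RRAGC*, a Rag GTPase gene (0.97), and *FLCN* (0.79) rose, and *SEH1L* (-0.64) fell. In libraries labelled U138MG *RRAGD* (1.10), *TBC1D7* (0.93) and *RRAGA* (0.83) rose, and *CASTOR2*, whose product pairs with an arginine sensor (-1.20), fell.

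**Figure D4:**
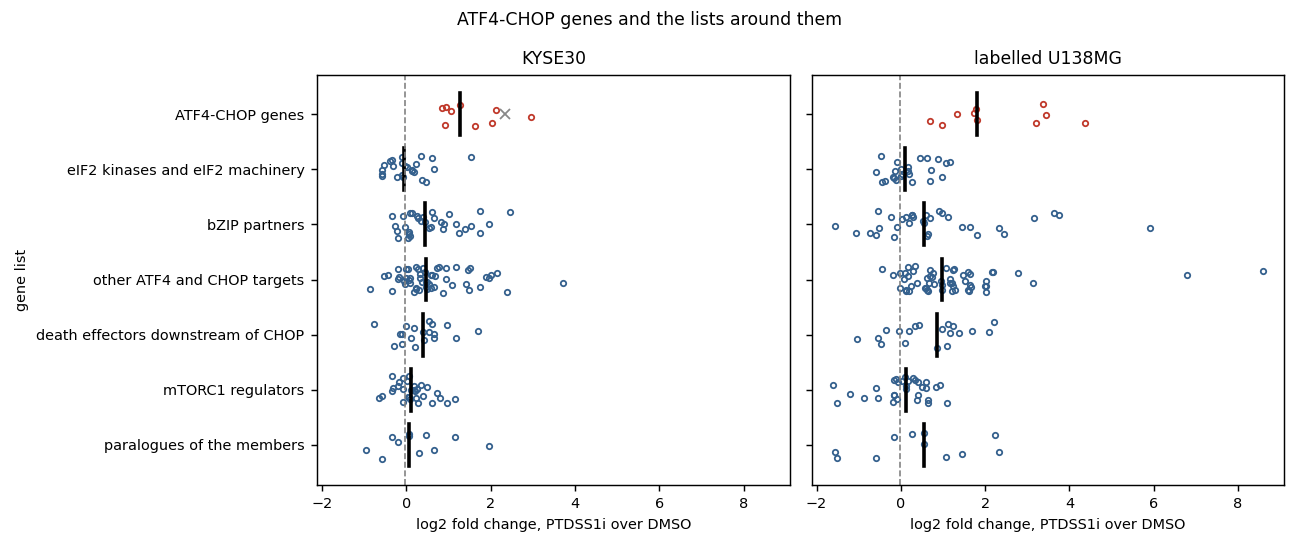
Log2 fold change of PTDSS1i over DMSO for each tested gene (circles) of the ATF4-CHOP genes and 6 lists around them, with a black bar at each list's median and a dashed line at the median of all genes tested, -0.03 in each line. The ATF4-CHOP genes have medians of 1.28 in KYSE30, where *NUPR1* is a grey cross left out of the median, and 1.80 in libraries labelled U138MG, against -0.05 to 0.98 for the other lists.

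The paralogues of the members did not move as one. Of 14 listed, 11 were tested in each line. In KYSE30 5 were higher and 3 lower, or 45.5% and 27.3%, against 30.1% and 32% of all genes. Libraries labelled U138MG had 7 higher and 4 lower, or 63.6% and 36.4%, against 33.9% and 33.6%. *CEBPD*, a paralogue of *CEBPB*, rose from 19.4 ± 1.48 to 75.9 ± 4.01 normalized CPM in KYSE30 (log2 fold change 1.97, edgeR adjusted p = 4.58e-16) and from 29.7 ± 2.48 to 149 ± 9.13 in libraries labelled U138MG (2.33, edgeR adjusted p = 3.61e-17). *CEBPG* rose in both (0.67 and 1.44), whereas *CEBPA* fell in both (-0.33 and -1.55). Of the tribbles genes, *TRIB1* rose by 1.14 and 2.24 on the log2 scale and *TRIB2* by 0.31 and 0.56, each less than *TRIB3* at 1.63 and 3.45. *SESN1* fell in both lines, from 18.1 ± 1.93 to 12.2 ± 0.667 normalized CPM in KYSE30 (log2 fold change -0.57, edgeR adjusted p = 1.61e-05) and from 23.96 ± 2.05 to 16.01 ± 0.714 in libraries labelled U138MG (-0.59, edgeR adjusted p = 2.4e-07). *SESN3* fell from 166 ± 7.23 to 57.9 ± 3.13 in libraries labelled U138MG (-1.52, edgeR adjusted p = 7.69e-22) and was not called in KYSE30 (0.061, edgeR adjusted p = 0.749). Of the 3 sestrin genes, *SESN2* alone rose in either line. *CHAC2*, which encodes the constitutive relative of CHAC1, went from 3.28 ± 1.11 to 1.71 ± 0.236 in KYSE30 (log2 fold change -0.95, edgeR adjusted p = 0.00149) and from 3.06 ± 0.832 to 4.41 ± 0.532 in libraries labelled U138MG (0.54, edgeR adjusted p = 0.0155), and the effects differed (difference 1.45, edgeR adjusted p = 0.00037). The call of *CHAC2* in libraries labelled U138MG was lost with scaling by library size alone (0.39, edgeR adjusted p = 0.0729) and by upper quartile (0.39, 0.0711). *PPP1R15B* rose in both (0.47 and 1.07). *ATF5*, the paralogue of *ATF4*, was not called in KYSE30 (-0.19, edgeR adjusted p = 0.0534) and rose by 0.27 in libraries labelled U138MG, and *JDP2*, close to *ATF3*, was not called in KYSE30 (0.061, edgeR adjusted p = 0.624) and fell in libraries labelled U138MG (-0.17). With library size alone *ATF5* was lower in KYSE30 (-0.29, edgeR adjusted p = 0.00317) and not called in libraries labelled U138MG (0.12, 0.229), and so it was by upper quartile (-0.21, 0.0296 and 0.13, 0.219). *DDIT4L*, *NUPR2* and *CEBPE* were at 0 counts in every library labelled U138MG. They were not found by symbol in KYSE30, where 11 of the 14 were.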

How the data were processed

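Poly-A RNA-seq was measured in 12 libraries of 4 groups, 3 replicates each, grouped by their labels. The deposited values are raw counts of reads per gene, 1 table per line, not normalized. The submitters' processing notes name Trimmomatic, STAR, featureCounts and hg38. Versions, annotation and use of strand are not given in the sources used here. Every column of the tables belonged to a labelled sample.

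The software was edgeR 4.0.16, DESeq2 1.42.0 and limma 3.58.1 under R 4.3.3, with matplotlib 3.10.9 and pandas 2.3.3 under Python 3.11.15. Low genes were dropped by filterByExpr (minimum count 10, minimum total 15), scaled by TMM and tested by the robust quasi-likelihood test of edgeR, adjusted by Benjamini-Hochberg over all genes and called at an adjusted p under 0.05. Standard errors were derived from the F statistic. Normalized CPM is relative to the library total times its TMM factor. The difference between lines was the interaction over shared genes. p-values measure the spread between the replicates of each group. Every replicate pair differed by more than sampling noise (lowest chi-square per degree of freedom 2.29).

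The members, lists and tests were chosen with earlier results of these data known. In each list and line, up to 3 rises and 2 falls were named, the largest with an adjusted p under 0.05, no overlap between treatments and at least 5 CPM on average, and all paralogues. Genes named beyond this rule (*VLDLR*, *SLC43A1*, *FGF21*, *BACH2*, *HLF*, *PSAT1*, *ALDH18A1*, *IARS1*, *ATG3*, *BCL2L1*, *MCL1*, *BAX*, *GADD45B*, *BCL2L11*, *MARS1*, *MBD6*, *CEBPB-AS1* and *DDIT4-AS1*) and values of a named gene in the other line were chosen after their values were seen. Positions, exon lengths and overlaps came from GENCODE 29 (GRCh38), which may differ from the authors' annotation, and promoters from RefSeq GRCh38.p14.

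Same-numbered KYSE30 libraries deviated together (correlations 0.206, 0.159 and 0.136 over 11415 genes), and the labels name no shared day or batch. Those labelled U138MG did not (-0.21, -0.095 and 0.15). Some differently numbered ones did there, such as DMSO 2 with PTDSS1i 1 (0.288) and DMSO 1 with PTDSS1i 2 (0.160). Deviations of 3 replicates cancel out within a group, so some matching of libraries tends to correlate. These values therefore do not establish a pairing by number in either line.

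On simulated counts, edgeR recovered 81 of 90 genes changed by 1 and 107 of 110 changed by 2 on the log2 scale in KYSE30 (16169 genes, 14 false calls), 74 of 95 and 102 of 105 in U138MG (17233 genes, 23 false calls), and 74 of 102 and 93 of 98 for the difference between the lines (17602 genes, 8 false calls). Alternatives were scaling by library size alone or upper quartile, DESeq2, no filter or at least 10 counts in every library, a replicate block, both lines fitted together, and each library left out. The 95% intervals come from the edgeR fit and hold the spread between replicates, and the limit of 3 counts covers counting error only.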

Additional observations from a re-analysis of the deposited data

Results flagged for a closer look

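Of the 10 members, 8 had a treatment effect that differed between the lines by the interaction test over 18405 genes (edgeR adjusted p under 0.05). In log2 units of U138MG minus KYSE30, the difference was 1.78 for *TRIB3*, 1.37 for *CHAC1*, 1.30 for *DDIT3*, 1.03 for *ATF3*, 0.85 for *SESN2*, 0.82 for *PPP1R15A*, 0.37 for *CEBPB* and -0.62 for *DDIT4*. Among all genes tested, 49.9% differed, so a difference between the lines was common. The line, the batch and the marker profile of the libraries labelled U138MG go together in this design and cannot be told apart.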

How the results depend on the processing

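The rise of each member in each line kept its direction and an adjusted p under 0.05 in every alternative run. The least firm was *DDIT4* in libraries labelled U138MG, with a log2 fold change between 0.55 and 0.81 and an edgeR adjusted p of up to 0.0248, without U138MG DMSO replicate 1. *NUPR1* in KYSE30 was not tested with at least 10 counts in every library. The number of members that rose less in libraries labelled U138MG went from 1 to 2, by *ATF4*, with library size alone (difference -0.13, edgeR adjusted p = 0.0475), upper-quartile scaling (-0.24, 0.00103) and at least 10 counts in every library (-0.17, 0.0165), and ranged from 1 to 2 with each library left out. The replicate block also made it 2 (-0.13, edgeR adjusted p = 0.0402) and made the KYSE30 bZIP partners called lower 2. It changed no other call of a member. In libraries labelled U138MG, where the numbers showed no pairing, the block gave 6019 genes higher and 5923 lower, against 5989 and 5930. With each library left out, the KYSE30 bZIP partners called lower ranged from 1 to 2, the latter without KYSE30 DMSO replicate 2. With library size alone, 13 genes of the eIF2 list, 4 bZIP partners and 5 death effectors were lower in KYSE30, and 4 other targets in libraries labelled U138MG. By construction that scaling lowers every log2 fold change. It also gave summed levels of 1460 and 2757 CPM after PTDSS1i in KYSE30 and in libraries labelled U138MG. With at least 10 counts in every library, 15389 genes were tested in libraries labelled U138MG, against 17666. Of these, 1273 fell by more than 1 on the log2 scale, against 2048. The cause of this and of the other changes was not tested. Depth limits *NUPR1* in KYSE30 and *CHAC1* in DMSO.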
